A study of Arabidopsis thaliana with 24 samples.

Results

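XTH genes encode xyloglucan endotransglucosylase/hydrolases, enzymes of the plant cell wall, and 10 of them were followed in root tips of Arabidopsis thaliana: XTH4, XTH5, XTH15, XTH16, XTH18, XTH19, XTH20, XTH22, XTH23 and XTH24. They were taken by locus from a list chosen by a reading of earlier results of these same counts, that is, of their levels and changes with zeocin or genotype, and they make up 10 of the 33 XTH genes and 10 of the 33296 named genes in the count table. The sources used here do not record which comparison put each gene on the list. Levels and changes of the 10 genes are therefore given as a description in every comparison. Where one of them is said to be called, this gives its place in a fit across all genes, on values that may have picked it, and is not an independent test.

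Xyloglucan is the main hemicellulose of the primary wall in this species and lies along and between cellulose microfibrils. XTH enzymes cut a xyloglucan chain and join the new end to another chain or, in a few members, to water, and so loosen, strengthen or rebuild the wall as cells grow. The genes are known for expression that differs by root zone and cell type and for responses to touch, auxin and brassinosteroid.

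The samples were tips of the primary root of 6-day-old seedlings of 2 genotypes, the wild type Col-0 (WT) and brl3-2, a T-DNA insertion line of BRL3, which encodes a brassinosteroid receptor related to BRI1. Liquid medium held DMSO (mock) or zeocin, a bleomycin-type antibiotic that breaks DNA, and seedlings of each genotype were left in it for 2 h. The labels give the zeocin dose as 10 µM in one place and 2 µM in another, and none is used here. Each of the 4 groups had 3 libraries, described as biological replicates, and each library was sequenced in 2 runs. The labels give 1 growth and handling protocol for all 4 groups, but the titles word the control of brl3-2 as a condition with the number 2 and that of WT without it, and what this means is not stated. The mutant is a single insertion allele, and each library holds whole tips with all their cell types. In such bulk tissue, fewer cells of a type and less RNA per cell cannot be told apart.

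Library totals lay between 32668516 and 38276389 counts, except for replicate 3 of WT, with 70212858 counts in mock and 73481046 in zeocin. BRL3 itself stood at 10.9 ± 1.73 CPM (the count relative to the library total after TMM scaling; mean ± SD, n = 3) in WT mock and 28.1 ± 5.75 CPM in WT zeocin, against 1.00 ± 0.28 and 1.00 ± 0.06 CPM in brl3-2 mock and zeocin, in accord with the genotype labels. All 5 meristem and stem cell niche markers (PLT1, PLT2, SCR, SHR and WOX5) were detected, with a summed level of 61.4 to 77.2 CPM over the 12 libraries, and so were the 4 root cap markers, at 18.4 to 29.2 CPM. The tips also held differentiated tissue: 5 root hair markers (COBL9, EXPA7, EXPA18, PRP3 and RSL4) summed to 155 to 439 CPM. Photosynthesis genes of the shoot summed to 39.7 to 74.1 CPM in 11 libraries and to 168.5 CPM in brl3-2 mock 2. Changes below are log2 fold changes ± SE from edgeR's quasi-likelihood fit to all 12 libraries, and a gene counts as called at an adjusted p under 0.05 over the 19437 genes tested. All 10 genes had enough reads to be tested.

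Levels of the 10 genes were far apart when counted per kb of exon. Averaged over the 12 libraries, XTH24 stood highest at 422 CPM per kb, followed by XTH15 at 189.8, XTH4 at 71.0, XTH22 at 55.5, XTH18 at 54.9 and XTH16 at 37.0 CPM per kb. XTH23 stood at 24.2 CPM per kb, XTH5 at 7.91, XTH19 at 5.70 and XTH20 at 0.36 CPM per kb. Over the 12 libraries, levels per kb of neighbours in this order overlapped, except between XTH15 and XTH4 and between XTH19 and XTH20. XTH22 held its place only through the zeocin libraries: its level per kb was 10.6 ± 4.27 in WT mock and 98.8 ± 9.84 in WT zeocin. Summed over the 10 genes, the libraries held 804 to 1714 CPM in WT mock, 1024 to 1491 in WT zeocin, 932.1 to 1124 in brl3-2 mock and 879 to 1218 in brl3-2 zeocin, so that the summed level of the groups overlapped.

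**Figure D1:**
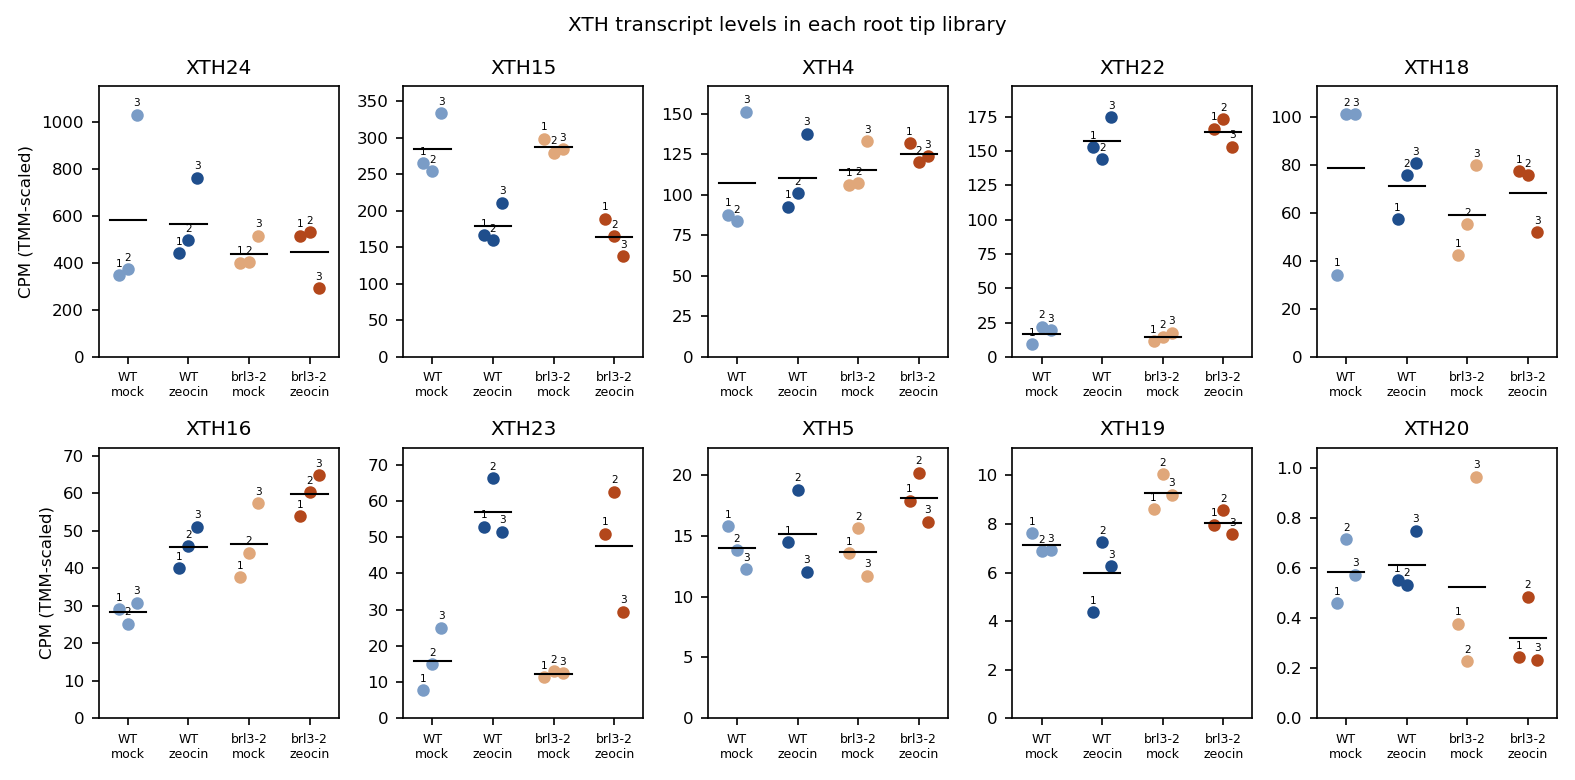
TMM-scaled CPM of the 10 XTH genes in every library, with 1 panel per gene and a linear axis from 0; points are libraries numbered by replicate and bars are group means. XTH22 and XTH23 lay higher in every zeocin library than in any mock library, XTH15 lay lower, and XTH24 had a single high library in WT mock at 1033 CPM.

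With zeocin in WT, 3 of the 10 genes were called higher (XTH22, XTH23 and XTH16) and 1 was called lower (XTH15), where 4.07% of all genes tested rose and 0.900% fell. In brl3-2, 2 of 10 were called higher (XTH22 and XTH23) and 1 lower (XTH15), where 4.32% of all genes rose and 1.05% fell. The median change of the 10 genes was 0.07 in WT and 0.16 in brl3-2 on the log2 scale, beside −0.0073 and −0.0034 over all genes tested. Because the genes were chosen with such results in view, nothing is read from these counts. The libraries of the zeocin and mock groups did not overlap for 4 of the 10 genes in WT, against 16.2% of all genes, and for 5 of 10 in brl3-2, against 23.6%.

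XTH22 (AT5G57560), also known as TCH4, was first found as a gene induced by touch and also responds to brassinosteroid and auxin. It lies at chr5:23307006-23308680 on the minus strand of TAIR10.1, and its closest relative by coding sequence is XTH23 (AT4G25810, also known as XTR6), at chr4:13128394-13129927 on the plus strand, with 80.92% identity. The 250 bases before each annotated gene start, from the TAIR10.1 reference of RefSeq, are shown because these genes had the largest zeocin changes of the 10. They run 5′ to 3′ on the strand of the gene, chr5:23308681-23308930 for XTH22 and chr4:13128144-13128393 for XTH23, and capitals mark the motif matches described next.
XTH22: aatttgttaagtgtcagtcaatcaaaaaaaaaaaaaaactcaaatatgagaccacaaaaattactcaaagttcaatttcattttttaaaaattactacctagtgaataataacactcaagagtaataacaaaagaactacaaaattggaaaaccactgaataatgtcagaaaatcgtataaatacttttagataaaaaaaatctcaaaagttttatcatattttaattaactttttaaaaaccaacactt
XTH23: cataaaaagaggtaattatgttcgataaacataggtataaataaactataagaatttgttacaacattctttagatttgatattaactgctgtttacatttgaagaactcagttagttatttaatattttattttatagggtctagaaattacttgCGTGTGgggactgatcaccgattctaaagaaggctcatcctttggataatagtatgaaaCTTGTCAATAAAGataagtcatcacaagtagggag

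Both strands of each window were searched for 4 motifs: CTT and AAG with any 7 bases between them, known as the site of the DNA damage factor SOG1, CGTGTG and CGTGCG, known as sites of the brassinosteroid factor BZR1, and the G-box CACGTG. The XTH23 window held the spaced SOG1 motif starting at base −35 from the gene start and CGTGTG at −94, while the letters of none of the 4 motifs were in the XTH22 window. Over 27443 gene windows of the same length in this genome, 9.71% held the SOG1 motif, 5.37% CGTGTG, 1.57% CGTGCG and 6.49% CACGTG. Of the 10 genes, 2 held the SOG1 motif (XTH16 and XTH23), 1 held CGTGTG and 0 held CGTGCG or CACGTG. Of the other 23 XTH genes, 4 held the SOG1 motif (XTH1, XTH10, XTH26 and XTH28) and 3 held CGTGTG. Of those 4, XTH28 was called higher with zeocin, XTH10 and XTH26 were not called, and XTH1 had too few reads to be tested. The G-box can share letters with either BZR1 motif, but no matches overlapped in the windows printed here. A match is a run of letters, not a shown site.

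In WT mock, XTH22 stood at 9.15, 22.0 and 19.4 CPM, and in WT zeocin at 152.8, 144 and 174.5 CPM. In brl3-2 mock it stood at 11.3, 14.7 and 17.7 CPM, and in brl3-2 zeocin at 166, 173 and 153 CPM. Every zeocin library was far above every mock library in both genotypes, while libraries of WT and brl3-2 overlapped within each treatment. The change was 3.22 ± 0.27 (9.30-fold) in WT and 3.50 ± 0.27 (11.3-fold) in brl3-2, and the difference between the responses of the genotypes was 0.28 ± 0.35 on the log2 scale. Of the mock libraries, WT mock 1 lay below both other WT mock libraries.

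XTH23 stood at 7.77, 14.9 and 25.0 CPM in WT mock and at 52.9, 66.3 and 51.5 CPM in WT zeocin. In brl3-2 it stood at 11.4, 13.1 and 12.5 CPM in mock and at 51.0, 62.5 and 29.4 CPM in zeocin. Mock and zeocin libraries did not overlap in either genotype, although brl3-2 zeocin 3 reached less than the other zeocin libraries. The change was 1.82 ± 0.35 (3.54-fold) in WT and 1.95 ± 0.36 (3.87-fold) in brl3-2, a smaller rise than that of XTH22 from a similar mock level per kb (11.6 ± 6.30 against 10.6 ± 4.27 CPM per kb in WT). When only the 2 WT groups were fitted, XTH23 was no longer called in WT, with a change of 1.82.

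By the root mean square difference of centred log2 CPM over the 12 libraries, the genes with the profile nearest to XTH22 were VIM4 (0.265), PMZ (0.309), AT1G03440 (0.328), AT4G02110 (0.342) and CP1 (0.349). Their group means moved the same way, which follows from how these genes were picked. CP1, for instance, went from 39.2 to 423 CPM in WT and from 35.3 to 436 CPM in brl3-2. VIM4 has close copies in the VIM family with which it may share reads. XTH23 ranked 165 of 19436 genes by this measure, with a difference of 0.818, and XTH16 ranked 978. XTH15, which changed in the opposite direction, ranked 19064. These ranks use the same 12 libraries as the zeocin changes and are not independent of them.

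XTH15 (AT4G14130, also known as XTR7 and implicated in petiole elongation under shade) and XTH16 (AT3G23730) were another related pair with called changes. Their coding sequences are 81.66% identical, the highest identity that either has with any other XTH gene, and no stretch of 50 bases is shared between their exons and those of other XTH genes. XTH15 lies at chr4:8137020-8138392 on the minus strand and XTH16 at chr3:8550037-8551403 on the plus strand. The 250 bases before each gene start, chr4:8138393-8138642 for XTH15 and chr3:8549787-8550036 for XTH16, are shown because the pair changed in opposite directions. Capitals mark the SOG1 motif, which started at base −26 in XTH16, and the letters of the 4 motifs were not in the XTH15 window.
XTH15: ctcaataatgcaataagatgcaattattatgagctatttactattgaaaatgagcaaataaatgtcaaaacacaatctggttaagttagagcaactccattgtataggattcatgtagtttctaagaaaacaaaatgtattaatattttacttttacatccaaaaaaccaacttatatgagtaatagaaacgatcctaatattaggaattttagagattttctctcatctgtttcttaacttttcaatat
XTH16: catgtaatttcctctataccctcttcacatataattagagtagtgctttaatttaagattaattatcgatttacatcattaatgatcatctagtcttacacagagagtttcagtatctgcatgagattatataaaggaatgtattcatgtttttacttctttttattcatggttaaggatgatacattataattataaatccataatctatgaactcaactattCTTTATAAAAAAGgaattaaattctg

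XTH15 stood at 265, 255 and 334 CPM in WT mock and at 167, 160.1 and 211 CPM in WT zeocin. In brl3-2 it stood at 299, 279.9 and 285 CPM in mock and at 189, 166 and 138 CPM in zeocin. Every zeocin library lay below every mock library of both genotypes. The change was −0.67 ± 0.14 in WT and −0.81 ± 0.14 in brl3-2 on the log2 scale, that is to 0.63 and 0.57 of the mock level. The call in WT was lost when only the WT groups were fitted (−0.67) and when WT zeocin 1 (−0.62) or WT zeocin 2 (−0.59) was left out, and the call in brl3-2 was kept without any single library. On the opposite strand, AT4G14120 overlaps 31.65% of the exon bases of XTH15, but held 42 to 94 counts per library against 5325 to 22151 for XTH15, and whether counting used strand is not given in the sources used here.

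XTH16 went the other way, from 29.0, 25.2 and 30.8 CPM in WT mock to 40.0, 45.8 and 51.1 CPM in WT zeocin. In brl3-2 it stood at 37.6, 44.2 and 57.5 CPM in mock and at 54.0, 60.3 and 64.9 CPM in zeocin. The WT groups did not overlap, while in brl3-2 the highest mock library, brl3-2 mock 3, lay above the lowest zeocin library. The zeocin change was 0.69 ± 0.15 in WT and 0.36 ± 0.15 in brl3-2, and only the former was called. The difference between these responses was −0.32 ± 0.21 and was not called. The WT call was lost when mock 1, mock 2, zeocin 2 or zeocin 3 of WT was left out (changes of 0.60 to 0.70) and without both WT libraries numbered 3 (0.66), and a call appeared in brl3-2 without brl3-2 mock 3 (0.55).

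**Figure D2:**
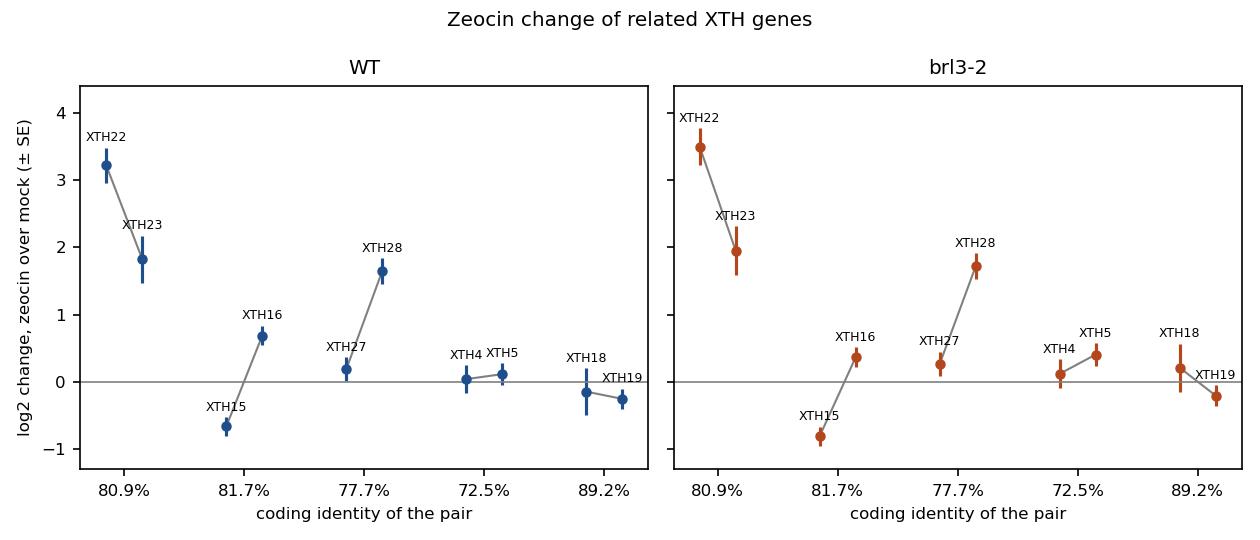
Log2 change with zeocin (± SE, 3 libraries per group) of 5 pairs of related XTH genes in WT (left) and brl3-2 (right), each pair joined by a line and labelled with the identity of its coding sequences in percent. XTH22 and XTH23 were both higher, XTH15 and XTH16 lay on opposite sides of 0, and XTH28 lay well above XTH27.

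XTH24 (AT4G30270), also known as MERI5B, had the highest level of the 10 genes and a change with zeocin near 0. It stood at 347, 374 and 1033 CPM in WT mock, at 442, 498 and 765 CPM in WT zeocin, at 402, 403 and 517 CPM in brl3-2 mock and at 517, 531 and 294 CPM in brl3-2 zeocin. WT mock 3 stood apart from the other mock libraries, and all 4 groups overlapped. The changes were −0.04 ± 0.39 in WT and 0.02 ± 0.39 in brl3-2. Without WT mock 3 the WT change was 0.66, and without both WT libraries numbered 3 it was 0.38, neither of them called. Markers of differentiated cells also varied between libraries. CASP1, which builds the Casparian strip of the endodermis, stood at 199.5, 153.5 and 512 CPM in WT mock, at 239.6, 253 and 379 in WT zeocin, at 274, 229 and 317 in brl3-2 mock and at 342, 327 and 199.9 CPM in brl3-2 zeocin, and so was highest in WT mock 3 and, within brl3-2, lowest in zeocin 3, as was XTH24. MYB36, an endodermis regulator, stood at 26.8, 25.6 and 52.0 CPM in WT mock and was also lowest of the 12 libraries in brl3-2 zeocin 3, at 22.3 CPM. The 5 root hair markers summed to 398.5 CPM in WT mock 3 against 231 and 155 in the other WT mock libraries, but were highest in brl3-2 mock, where XTH24 was not. Their part in the spread of XTH24 was not tested.

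**Figure D3:**
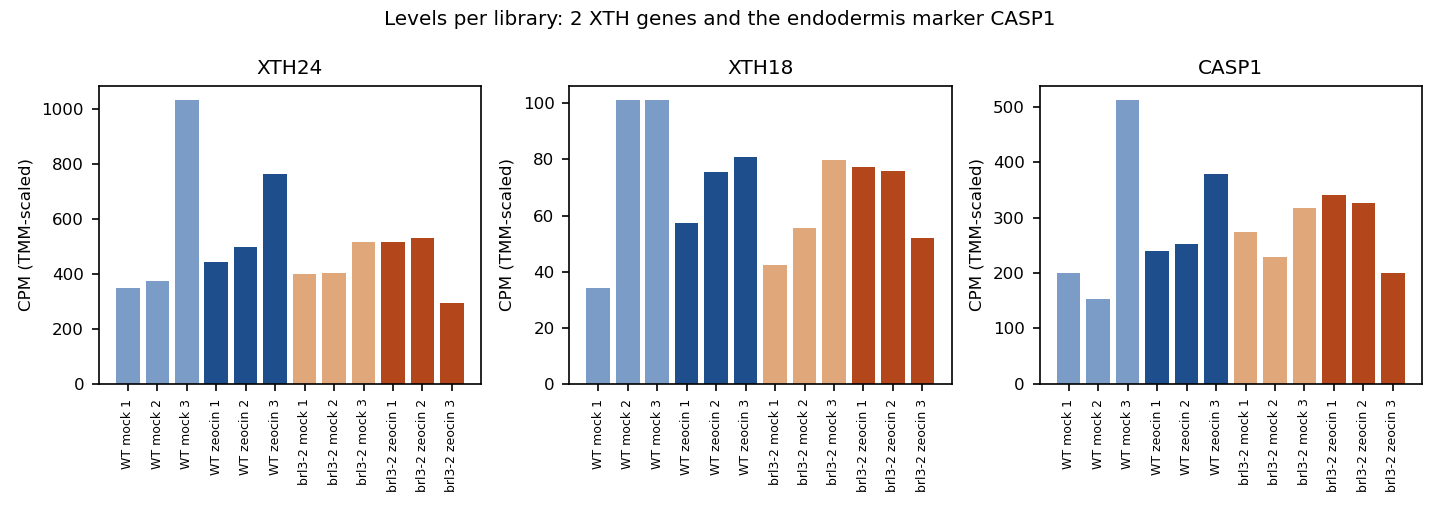
TMM-scaled CPM of XTH24, XTH18 and the endodermis marker CASP1 in each of the 12 libraries, on linear axes from 0. WT mock 3 was the highest library for XTH24 (1033 CPM) and CASP1 (512 CPM), and XTH18 was equally high in WT mock 2 and WT mock 3 (101 CPM).

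XTH18 (AT4G30280), XTH19 (AT4G30290) and XTH20 (AT5G48070) belong with XTH17 to a root-expressed group whose members are active in different zones. XTH24, XTH18 and XTH19 lie in a row on the minus strand at chr4:14819192-14820595, chr4:14825757-14827211 and chr4:14828712-14830224, with 5161 and 1500 bases between them and no other protein-coding gene in either gap. XTH18 is 92.23% identical to XTH17 and 89.21% to XTH19 in coding sequence. Of its 1214 exon windows of 50 bases, 19 also occur in another XTH gene, as do 21 of 1286 in XTH19, so that a small share of their reads could belong to either gene.

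XTH18 stood at 34.3, 101 and 101 CPM in WT mock, at 57.3, 75.6 and 80.7 in WT zeocin, at 42.2, 55.4 and 79.7 in brl3-2 mock and at 77.2, 75.7 and 51.9 CPM in brl3-2 zeocin. All groups overlapped, with WT mock 1 lowest of all. XTH19, linked with XTH20 to the rejoining of cut flowering stems, stood at 7.63, 6.88 and 6.92 CPM in WT mock, at 4.38, 7.25 and 6.26 in WT zeocin, at 8.60, 10.0 and 9.20 in brl3-2 mock and at 7.97, 8.58 and 7.58 CPM in brl3-2 zeocin. Its zeocin libraries lay below its mock libraries in brl3-2 and overlapped them in WT. XTH20, at chr5:19481897-19483527, was barely detected, with 8 to 52 counts per library, and stood between 0.23 and 0.96 CPM. Changes with zeocin in WT and brl3-2 were −0.15 ± 0.35 and 0.21 ± 0.36 for XTH18, −0.26 ± 0.15 and −0.21 ± 0.15 for XTH19, and 0.10 ± 0.44 and −0.70 ± 0.50 for XTH20. With single libraries left out, the XTH18 change in WT ran from −0.50 to 0.07 and the XTH20 change in brl3-2 from −1.11 to 0.07. None of these changes was called, so the neighbours XTH24, XTH18 and XTH19 had no called zeocin change among them.

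XTH4 (AT2G06850), linked to growth of secondary wood tissue, and XTH5 (AT5G13870) are 72.53% identical and each other's closest relative. They lie at chr2:2763449-2765743 and chr5:4474922-4477090. XTH4 stood at 87.7, 83.6 and 151 CPM in WT mock, at 92.6, 101 and 138 in WT zeocin, at 106, 107 and 133 in brl3-2 mock and at 132, 120.3 and 124 CPM in brl3-2 zeocin. Both WT libraries numbered 3 were its highest, and all groups overlapped. XTH5 stood at 15.8, 13.8 and 12.3 CPM in WT mock, at 14.5, 18.8 and 12.1 in WT zeocin, at 13.6, 15.7 and 11.7 in brl3-2 mock and at 17.9, 20.2 and 16.2 CPM in brl3-2 zeocin. Its zeocin libraries lay above its mock libraries in brl3-2 and overlapped them in WT. The zeocin changes were 0.04 ± 0.21 and 0.12 ± 0.21 for XTH4 and 0.11 ± 0.17 and 0.40 ± 0.17 for XTH5 in WT and brl3-2, and none was called.

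Libraries of 1 group differed more in some of these genes than in others. The SD of log2 CPM within groups was 0.573 for XTH20, 0.552 for XTH24, 0.547 for XTH18, 0.518 for XTH23 and 0.386 for XTH22, and 95, 94.4, 94.2, 93.2 and 85.9% of all genes tested had a smaller one. It was 0.191 for XTH15, 0.203 for XTH19, 0.204 for XTH16, 0.226 for XTH5 and 0.298 for XTH4. Among the 10 genes the widest SE of a zeocin change belonged to XTH20, XTH24, XTH18 and XTH23. XTH20 had 8 to 52 counts per library, against 11317 to 68496 for XTH24. The part of counting noise in the spread of XTH20 was not tested.

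Between genotypes, 0 of the 10 genes were called in mock and 0 under zeocin, where edgeR's quasi-likelihood test called 0.0257% and 0.0412% of all genes. At an unadjusted p under 0.05 there were 2 in mock and 2 under zeocin, beside 771 and 412 of all 19437 genes, limma-voom called 0 in both, and DESeq2 called 1 in mock (XTH16) and 0 under zeocin. XTH16 and XTH19 were higher in every brl3-2 library than in any WT library of the same treatment, in mock and under zeocin alike. Of all genes, 4.06% in mock and 4.25% under zeocin lay apart in this direction, and the share apart in both was not counted. The brl3-2 against WT difference was 0.71 ± 0.15 in mock and 0.39 ± 0.15 under zeocin for XTH16, and 0.38 ± 0.15 and 0.43 ± 0.15 for XTH19. XTH20 lay lower in every brl3-2 zeocin library than in any WT zeocin library (−0.96 ± 0.48), at 0.24, 0.48 and 0.23 against 0.55, 0.53 and 0.75 CPM, where 3.27% of all genes lay apart downward. Libraries of the genotypes overlapped for the other members, and the direction of some differences rested on WT mock 3. Without that library the mock difference went from −0.39 to 0.12 for XTH23 and from −0.41 to 0.29 for XTH24. These genotype comparisons use the same libraries as the zeocin comparisons and are not independent of them.

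The difference between the zeocin responses of the genotypes ran from −0.79 for XTH20 to 0.36 for XTH18 among the 10 genes. None was called, and edgeR, DESeq2 and limma-voom each called 0 of 19437 genes in this comparison, with 194 genes at an unadjusted p under 0.05 in edgeR. None of the 10 XTH genes was among those 194. Without WT mock 3 the difference went from 0.13 to −0.37 for XTH23 and from 0.06 to −0.64 for XTH24, neither of them called. For XTH22 the 95% interval of the difference ran from −0.49 to 1.05 on the log2 scale, for XTH23 from −0.95 to 1.20 and for XTH15 from −0.58 to 0.29, so that differences within these bounds are not excluded by these libraries.

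The other 23 XTH genes are those left in the family once the 10 were taken, so which genes they are was also decided with these data in view. Of these, 16 were tested, and 7 had too few reads (XTH1, XTH3, XTH6, XTH7, XTH25, XTH29 and XTH32, each with at most 21 counts in any library). With zeocin in WT, XTH28 rose and XTH21 fell, so 2 of 16 were called. In brl3-2, XTH28 rose and no other was called. Their median change was −0.08 in WT and −0.12 in brl3-2. Over the whole family of 33, 26 were tested, of which 4 rose and 2 fell in WT and 3 rose and 1 fell in brl3-2. The shares of all genes tested were 4.07% and 0.900% in WT and 4.32% and 1.05% in brl3-2, and the family counts include the 10 chosen genes, so nothing is read from them.

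XTH28 (AT1G14720), known for a role in stamen growth and self-pollination, lies at chr1:5066525-5068677 on the minus strand. It stood at 10.3, 9.16 and 15.8 CPM in WT mock and at 34.5, 36.9 and 39.95 CPM in WT zeocin, and at 11.9, 11.1 and 12.8 CPM in brl3-2 mock and 44.9, 41.9 and 31.0 CPM in brl3-2 zeocin. Mock and zeocin libraries did not overlap in either genotype. XTH28 rose by 1.65 ± 0.19 in WT (adjusted p = 0.00016, edgeR's quasi-likelihood test with Benjamini-Hochberg adjustment) and by 1.72 ± 0.19 in brl3-2 (adjusted p = 0.00011). This change is close in size to that of XTH23, while XTH27, its closest relative at 77.68% identity, changed by 0.19 ± 0.18 and 0.26 ± 0.18 and was not called. The window before XTH28, chr1:5068678-5068927, is shown for comparison with those of XTH22 and XTH23, with the SOG1 motif in capitals starting at base −102.
XTH28: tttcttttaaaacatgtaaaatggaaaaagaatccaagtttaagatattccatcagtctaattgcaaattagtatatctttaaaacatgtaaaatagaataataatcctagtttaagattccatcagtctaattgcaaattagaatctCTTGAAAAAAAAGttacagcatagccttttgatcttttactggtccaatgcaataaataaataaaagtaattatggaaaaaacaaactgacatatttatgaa

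XTH21 (AT2G18800), linked to root growth, stood at 17.6, 16.1 and 20.1 CPM in WT mock and at 11.5, 13.1 and 13.6 CPM in WT zeocin. In brl3-2 it stood at 19.0, 18.1 and 21.0 CPM in mock and at 15.4, 15.5 and 16.7 CPM in zeocin. The zeocin libraries lay below the mock libraries in both genotypes. XTH21 fell by 0.49 ± 0.10 on the log2 scale in WT (edgeR adjusted p = 0.012), and its change in brl3-2 was −0.29 ± 0.10 (adjusted p = 0.16). The WT call was lost when only the WT groups were fitted (−0.50, adjusted p = 0.10) and without WT zeocin 1 (−0.43, adjusted p = 0.064), and over all alternatives that left out 1 library the highest adjusted p was 0.064.

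**Figure D4:**
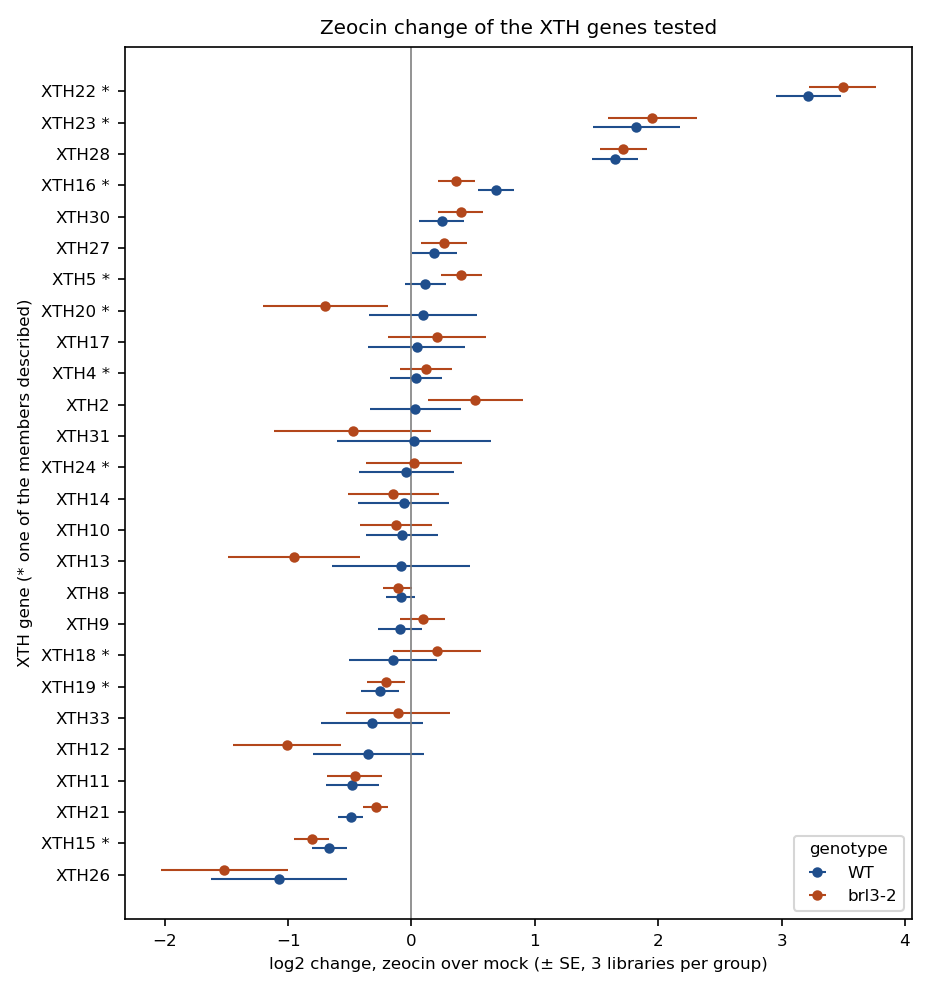
Log2 change with zeocin (± SE, 3 libraries per group) of the 26 XTH genes tested, in WT and brl3-2, ordered by the WT change; an asterisk marks the 10 genes described in full. XTH22, XTH23 and XTH28 stood above the rest in both genotypes, and XTH26 lay lowest in both.

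Of the XTH genes next to XTH22 and XTH23, those tested were not called with zeocin in the fit to all 12 libraries. Neighbours outside the family are not described here. XTH14 starts 363 bases after XTH23 on the same strand and changed with zeocin by −0.06 ± 0.37 in WT and −0.15 ± 0.37 in brl3-2. XTH12, XTH13, XTH25 and XTH22 follow each other on the minus strand of chromosome 5, with 1 other protein-coding gene between XTH12 and XTH13 and 565 bases between XTH25 and XTH22. XTH25 had too few reads to be tested, XTH13 changed by −0.09 ± 0.56 and −0.95 ± 0.54, and XTH12 by −0.35 ± 0.45 and −1.01 ± 0.44. Among XTH12, XTH13 and XTH22, only XTH22 was called with zeocin in the fit to all 12 libraries.

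XTH12, XTH13 and XTH26 had the largest genotype differences of the family in mock, and XTH26 is known from root hairs. In brl3-2 mock they stood 1.47 ± 0.44, 1.78 ± 0.55 and 1.57 ± 0.51 above WT mock on the log2 scale. None was called (adjusted p = 1 in edgeR for each). In none of them did the libraries overlap, where 4.06% of all genes lay apart in this direction. They were among 4 of the 16 other XTH genes tested whose libraries lay apart in this way. XTH12, for example, stood at 3.67, 1.57 and 7.28 CPM in WT mock and at 14.3, 10.6 and 10.54 CPM in brl3-2 mock. All 5 root hair markers had positive values in the same comparison, with a median of 0.46 and none called. Their summed level was 155 to 399 CPM in WT mock, 193 to 298 in WT zeocin, 369 to 439 in brl3-2 mock and 195 to 389 CPM in brl3-2 zeocin, and none of the markers was at 0. The part of root hair tissue in these XTH differences, or in those of XTH16 and XTH19, was not tested.

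Other genes of the same wall were counted in the same fit, in which 4.07% of all genes rose and 0.900% fell with zeocin in WT and 4.32% rose and 1.05% fell in brl3-2. Expansins loosen walls without cutting them, and of 19 listed 13 were tested, of which 1 rose in WT and 2 rose in brl3-2. EXPA14 went from 10.0, 6.93 and 12.5 to 19.1, 26.9 and 27.5 CPM in WT and from 7.96, 10.3 and 10.2 to 33.1, 35.6 and 31.1 CPM in brl3-2, with no overlap between mock and zeocin in either. It rose by 1.31 ± 0.20 in WT (edgeR adjusted p = 0.0015) and by 1.81 ± 0.20 in brl3-2 (adjusted p = 0.00012). EXPA6 rose by 0.88 ± 0.21 in brl3-2 (edgeR adjusted p = 0.033, and up to 0.15 in the fits that left out 1 library, of which 4 of 12 lost the call, as did limma-voom at 0.057) and changed by 0.49 ± 0.21 in WT (adjusted p = 0.32). The median change of the expansins was −0.06 in WT and −0.16 in brl3-2.

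Of 18 genes that make and trim xyloglucan, the substrate of XTH enzymes, edgeR called 0 in either genotype, with 0 in WT and 3 in brl3-2 at an unadjusted p under 0.05, beside 2664 and 2963 of all 19437 genes. Their changes lay between −0.29 and 0.25 in WT and between −0.66 and 0.19 in brl3-2, with the lowest value in both for XLT2, a xyloglucan galactosyltransferase. Of 8 tested genes of cellulose synthesis in the primary wall, edgeR also called 0 in either genotype, with 2 and 1 at an unadjusted p under 0.05. Without both WT libraries numbered 3, CESA2 and CESA5 were called higher in WT. The median change was 0.06 in WT and −0.0038 in brl3-2.

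XTH22 is TCH4, and the 3 other TCH touch genes, which encode the calmodulin CAM2 and the calmodulin-like proteins CML24 and CML12, were not called in either genotype. None of them had an unadjusted p under 0.05. CML12 stood at 29.7, 143 and 93.6 CPM in WT mock and at 126, 115 and 132 CPM in WT zeocin, and at 28.2, 41.7 and 70.5 CPM in brl3-2 mock and 86.3, 88.8 and 97.1 CPM in brl3-2 zeocin. Its libraries overlapped in WT, where the mock libraries were far apart, and did not overlap in brl3-2, with changes of 0.49 ± 0.44 and 0.95 ± 0.44. Of the 3 other TCH genes, 2 lay higher in every zeocin than in any mock library in brl3-2, and 0 in WT. Of all 19437 genes, 2528 in brl3-2 and 1916 in WT lay higher in this way, and 23.6% and 16.2% lay apart in either direction. The changes of CML24 were 0.04 ± 0.24 and 0.34 ± 0.25, and those of CAM2 0.21 ± 0.19 and 0.30 ± 0.20. Exons on the opposite strand overlap 47.56% of the exon bases of CAM2, 20.87% of CML24 and 20.21% of CML12. Whether their counts include reads from the opposite strand was not tested.

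Marker genes of other cell types were examined beside the zeocin changes. The meristem markers summed to 67.3 to 76.1 CPM in WT mock and 61.4 to 68.3 in WT zeocin, and to 68.6 to 77.2 in brl3-2 mock and 61.6 to 67.7 CPM in brl3-2 zeocin, so the groups overlapped in WT and did not in brl3-2. Of these 5 markers, 0 were called in WT and 1 fell in brl3-2. The 5 root hair markers had no called zeocin change, but in brl3-2 all 5 had negative values (median −0.41). Mock and zeocin libraries did not overlap for 3 of these markers in brl3-2, all of them lower with zeocin. Of all 19437 genes, 2063 lay apart in this direction and 23.6% in either direction. At an unadjusted p under 0.05 in edgeR there was 1 of the root hair markers, beside 2963 of all genes. In WT, 3 of the 5 were negative (median −0.05). The 4 root cap markers had no called change. The part of these shifts in the XTH changes was not tested.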

How the data were processed

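Counts per gene were deposited by the authors in a single table, with each library as a column. The submitters' processing notes give the build TAIR10 and list, with no role, edgeR 3.34.1, featureCounts 1.6.2, HISAT2 2.1, Trimmomatic 0.38 and FastQC 0.11.2. How they were set, whether strand was used and whether both runs of a library were added is not given in the sources used here. The row without a gene name, at most 0.00393% of a library, was left out.

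The deposited counts were fitted in edgeR 4.0.16 under R 4.3.3, after filterByExpr (minimum count 10, minimum total 15) and TMM, by quasi-likelihood with 4 group terms over 12 libraries. The 5 contrasts were two-sided, with Benjamini-Hochberg adjustment over 19437 genes and a threshold of 0.05. An SE is the change over the root of its F statistic. The steps were tested on simulated data. Alternatives were fits on only the groups compared, a replicate block, RLE scaling, no filter, DESeq2 1.42.0, limma-voom (limma 3.58.1), each library left out, and both WT libraries numbered 3 left out. No pair of libraries in a group was a duplicate within counting noise (chi-square over degrees of freedom from 7.81 to 99.6).

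The 10 XTH genes and the lists were chosen with earlier results of these data known. Named beyond the 10 were BRL3, other XTH genes past the threshold, up to 4 called genes of each wall list and the 5 genes nearest to XTH22. XTH12, XTH13, XTH14, XTH26, XTH27, CML12, CML24, CAM2, CESA2, CESA5 and XLT2 were named after their values were seen, as were CASP1 and MYB36 singly. Coordinates, exon lengths, coding sequences and windows of 250 bases are from TAIR10.1 in RefSeq. Of the endodermis markers, 1 is not reported here.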

Additional observations from a re-analysis of the deposited data

How the results depend on the processing

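Fitted on only the groups compared, the zeocin comparison in WT called 566 genes against 967, 2 of the 10 XTH genes against 4 and 1 other XTH gene against 2, the brl3-2 zeocin comparison called 2 other XTH genes (XTH12 and XTH28) against 1, and the genotype comparisons called 2 genes in mock against 5 and 5 under zeocin against 8. DESeq2 called 2 other XTH genes in brl3-2 (XTH26 and XTH28) and, between genotypes in mock, 12 genes and 1 of the 10 XTH genes. Without both WT libraries numbered 3, 2 cellulose genes were called with zeocin in WT and 4 genes between genotypes under zeocin. With 1 library left out, calls with zeocin ran from 673 to 1399 genes, 2 to 4 of the 10 XTH genes and 1 to 3 other XTH genes in WT, and from 706 to 1323, 3 to 4 and 1 to 2 in brl3-2. Genotype calls ran from 4 to 5 in mock and from 4 to 7 under zeocin. The causes were not tested. The labels do not say that replicate numbers pair samples, and the main fit did not pair them. Not every same-numbered pair of libraries correlated above 0.1 in its deviations across genes. This cannot decide whether samples were paired, since libraries with different numbers were not compared in this way. The correlations were 0.242, 0.0117 and 0.589 between WT mock and zeocin, 2.15e-06, 0.112 and 0.0342 between brl3-2 mock and zeocin, 0.288, 0.0953 and 0.399 between the mock groups, and −0.212, 0.187 and −0.124 between the zeocin groups. They were 0.123, 0.3 and 0.419 between WT zeocin and brl3-2 mock, and −0.135, −0.0828 and −0.316 between WT mock and brl3-2 zeocin. Some libraries thus did deviate together, and whether they shared a batch was not tested. With the replicate block, 1041 genes and 4 of the 10 XTH genes were called with zeocin in WT and 1144 and 3 in brl3-2. RLE scaling, no filter and limma-voom left the XTH counts within 1.5 times of those reported. XTH20 had 8 to 52 counts per library, the fewest of the 10.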
